A study of Mus musculus with 6 samples.

Results

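Glycolysis splits glucose into pyruvate and yields ATP without oxygen. Hexokinases trap glucose in the cell, phosphofructokinase commits it to the pathway, and lactate dehydrogenase turns pyruvate into lactate and regenerates NAD+. Glucose phosphate can also be stored as glycogen or sent through the pentose phosphate pathway, which supplies NADPH and ribose for biosynthesis. In the uterus, the epithelium can store glycogen before implantation, and glucose and lactate enter the luminal fluid that surrounds the free embryo.

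To describe these pathways in the pregnant uterus without epithelial SOX17, a transcription factor of the epithelium, 41 genes were followed. They were taken from a list of the enzymes of glycolysis, gluconeogenesis, the pentose phosphate pathway and glycogen metabolism, together with the kinases of pyruvate dehydrogenase, a glycogen-targeting phosphatase subunit and glutamine synthetase. All 41 had a probe on the arrays, and 39 of them were among the 14847 genes tested. Whole uteri were taken at gestation day (GD) 3.5, when the embryo is about to attach, 3 days after the mating plug, from females mated at 8 to 10 weeks of age, and the embryos had been flushed out. Both groups carried the floxed *Sox17* allele. The 3 control samples (*Sox17 f/f*) had no recombinase, and the 3 *Sox17 ed/ed* samples (LtfiCre/+ Sox17 f/f) also had 1 copy of iCre driven by *Ltf*, a recombinase that removes *Sox17* from epithelial cells of the uterus from puberty on. No control with iCre alone was among the samples. RNA was measured on 1-colour Agilent arrays, 1 array for each sample, and the values below are log2 signals after quantile normalization between arrays. A gene was called changed at a limma adjusted p under 0.05, adjusted over all 14847 genes.

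The targeted gene *Sox17* averaged 12.17 ± 0.09 (SD, n = 3) without the recombinase against 9.72 ± 0.11 (SD, n = 3) with it, and fell by 2.45 on the log2 scale (standard error of the fit, SE, 0.09, limma adjusted p = 2.66e-05). The share of spots well above background was 60.7% to 65.7% in *Sox17 f/f* and 56.8% to 59.4% in *Sox17 ed/ed* uteri, and 0 spots were saturated. All 6 arrays shared 1 slide, where each genotype filled a separate line, so line and genotype cannot be told apart. All 15 markers of uterine epithelium were measured, and 6 of them rose and 3 fell, with a median log2 fold change of 0.30. Their summed linear signal was 56510 to 60088 in *Sox17 f/f* uteri against 61507 to 75168 in *Sox17 ed/ed* uteri. The largest gains in linear signal were those of *Krt19* (log2 fold change 2.10) and *Cdh16* (8.68), so the sum rests on few genes. The 3 that fell were *Cldn3* (-1.16), *Cldn7* (-0.71) and *Pax8* (-0.91). Of 10 endothelial markers 6 were lower and 1 higher, and their summed signal was 65916 to 68036 against 50437 to 54514. Of 11 smooth muscle markers 2 were lower and 0 higher (sums 639836 to 697210 against 487753 to 584350), and of 12 stromal markers 1 was higher and 1 lower (446754 to 467652 against 380417 to 442017). Of 13 cell cycle genes 1 was called, higher, but 10 had an unadjusted p under 0.05, all 13 had positive log2 fold changes (median 0.47), and their sums were 26696 to 34782 against 40245 to 43715. These sums did not overlap between the genotypes in any of the 5 lists. Among all genes tested, 8.84% were called higher and 10.1% lower. The part of these marker shifts in the values below was not tested, and in whole tissue fewer cells of a type and less RNA per cell cannot be told apart.

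Of the 39 members tested, 12 (30.8%) differed between the genotypes, against 18.9% of all genes tested. The 5 that rose in *Sox17 ed/ed* uteri were *Hk1*, *Aldoc*, *Eno1*, *Ldhb* and *Pdk2*, where 8.84% of all genes rose. The 7 that fell were *Hk2*, *Pfkfb3*, *Eno2*, *Ldha*, *Pck1*, *Ugp2* and *Glul*, where 10.1% of all genes fell. The members did not move one way: their median log2 fold change was 0.10, and that of all genes was 0.00. The median size of the change, whatever its sign, was 0.20 for the members and 0.17 for all genes. At the thresholds given in the study's methods, an unadjusted p under 0.01 and a fold change of at least 1.4, 8 members passed (20.5%, against 12.5% of all genes), with 3 rising and 5 falling. The signal ranges of the genotypes did not overlap for 21 members (53.8%, against 40.6% of all genes).

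**Figure D1:**
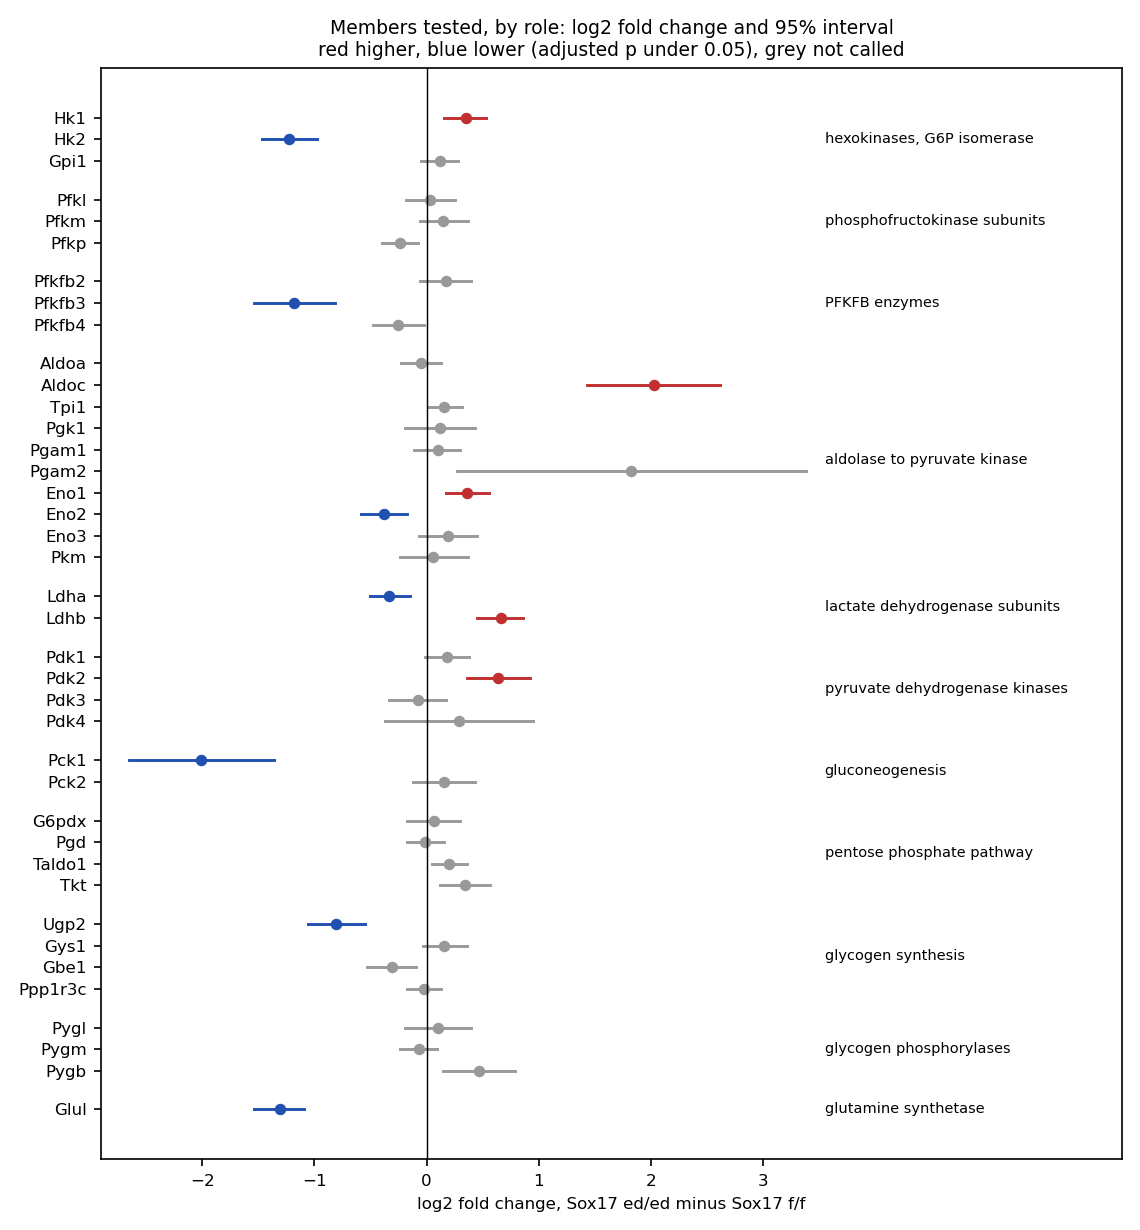
Log2 fold change (*Sox17 ed/ed* minus *Sox17 f/f*, horizontal axis) of the 39 members tested, grouped by role, with the 95% interval of the limma fit on 3 arrays against 3. Red and blue mark the 5 members that rose and the 7 that fell at an adjusted p under 0.05, and grey marks the others. Called and uncalled genes stand side by side in 6 of the 11 roles, and the widest interval is that of *Pgam2*.

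The promoters of the 5 called members that changed more than 2-fold, *Hk2*, *Pfkfb3*, *Aldoc*, *Pck1* and *Glul*, are given here because these genes carry the largest called changes and can be read for short matches to the factors of interest. Shown are the 250 bases before the first listed start in RefSeq (GRCm38.p6), 5′ to 3′ on the strand of the gene. They lie at chr6:82774455-82774704 on the minus strand (*Hk2*), chr2:11553930-11554179 on the minus strand (*Pfkfb3*), chr11:78322823-78323072 on the plus strand (*Aldoc*), chr2:173152823-173153072 on the plus strand (*Pck1*) and chr1:153899679-153899928 on the plus strand (*Glul*). Capitals mark the core that SOX proteins recognise (ATTGT, or ACAAT on the other strand) and the core of the hypoxia-inducible factor site (ACGTG, or CACGT on the other strand).
Hk2: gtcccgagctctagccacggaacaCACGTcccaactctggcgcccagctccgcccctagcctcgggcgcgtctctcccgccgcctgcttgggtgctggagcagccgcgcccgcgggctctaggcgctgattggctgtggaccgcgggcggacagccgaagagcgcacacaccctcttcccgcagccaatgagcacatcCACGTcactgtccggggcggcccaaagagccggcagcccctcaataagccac
Pfkfb3: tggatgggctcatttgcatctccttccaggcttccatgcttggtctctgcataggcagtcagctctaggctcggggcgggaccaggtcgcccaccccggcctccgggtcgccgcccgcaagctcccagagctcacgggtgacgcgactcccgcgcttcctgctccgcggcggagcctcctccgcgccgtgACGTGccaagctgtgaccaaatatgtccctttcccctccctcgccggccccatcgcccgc
Aldoc: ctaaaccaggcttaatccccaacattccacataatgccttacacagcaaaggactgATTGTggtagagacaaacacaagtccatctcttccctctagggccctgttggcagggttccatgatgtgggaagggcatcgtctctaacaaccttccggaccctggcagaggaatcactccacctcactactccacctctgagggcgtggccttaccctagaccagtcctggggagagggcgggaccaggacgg
Pck1: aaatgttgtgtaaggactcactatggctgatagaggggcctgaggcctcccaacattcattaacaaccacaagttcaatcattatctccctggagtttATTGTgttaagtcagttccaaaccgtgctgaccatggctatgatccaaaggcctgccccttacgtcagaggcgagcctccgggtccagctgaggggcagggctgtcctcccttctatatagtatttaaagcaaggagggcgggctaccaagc
Glul: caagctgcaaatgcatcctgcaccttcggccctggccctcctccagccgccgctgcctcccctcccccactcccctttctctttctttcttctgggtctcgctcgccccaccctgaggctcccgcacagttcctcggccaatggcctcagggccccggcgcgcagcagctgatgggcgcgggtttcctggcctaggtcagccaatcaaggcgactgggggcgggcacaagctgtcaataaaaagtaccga

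The *Hk2* window held 2 matches to the hypoxia core and the *Pfkfb3* window 1, while *Aldoc*, which rose, and *Pck1*, which fell, each held 1 match to the SOX core. The *Glul* window held neither set of letters. Over the 41 members RefSeq lists 59 promoter windows, of which 10 (16.9%) held the SOX core, against 27.7% of the 32851 windows in the table. The hypoxia core stood in 21 of the 59 (35.6%), against 16.6% of all windows. For neither core were the windows matched in base composition, and several glycolytic genes are classical targets of hypoxia-inducible factor. Of the 20 windows of the 12 called members, 3 held the SOX core and 6 the hypoxia core, the latter at *Hk2*, *Pfkfb3*, *Ldha*, *Pdk2* and *Ugp2*. The hypoxia core is also contained in the longer E-box CACGTG, and a match of letters is no binding site. Nor does a window without a match show that a gene lacks SOX17 sites. The study sequenced DNA bound by SOX17 in uteri after progesterone, and named *Glul* and *Pfkfb3* among its target genes. To be named, a gene had to lie near a site shared with other uterine factors and also differ on the study's arrays. The naming is therefore not independent of the changes given here. The search for bound sites reached much further from each gene than these windows.

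The first step of glycolysis is catalysed by hexokinases, of which *Hk1* encodes the widely expressed form and *Hk2* a form induced by insulin, growth factors and low oxygen. *Hk2* read 9.43, 9.34 and 9.29 on the 3 *Sox17 f/f* arrays and 7.95, 8.28 and 8.16 on the 3 *Sox17 ed/ed* arrays. Every *Sox17 ed/ed* array lay more than 1 log2 unit below every *Sox17 f/f* array, a log2 fold change of -1.23 (2.34-fold, SE 0.10, limma adjusted p = 0.000575). *Hk1* moved the other way, from 12.61, 12.60 and 12.75 to 13.03, 12.91 and 13.06, without overlap and by a smaller step of 0.35 (SE 0.08, limma adjusted p = 0.0272). The call of *Hk1* was lost in 7 of 14 alternative analyses, with adjusted p between 0.00578 and 0.0981. Glucose-6-phosphate isomerase, encoded by *Gpi1*, makes the next step and was not called (log2 fold change 0.12, 95% interval -0.05 to 0.28).

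Phosphofructokinase is the main point of control, and fructose 2,6-bisphosphate, made and broken down by the PFKFB enzymes, is its strongest activator. *Pfkfb3*, whose enzyme strongly favours making this activator, read 12.11, 12.15 and 12.58 in *Sox17 f/f* uteri and 10.93, 11.20 and 11.16 in *Sox17 ed/ed* uteri. The *Sox17 ed/ed* arrays were low and close together, and *Pfkfb3* fell by 1.18 on the log2 scale (2.27-fold, SE 0.15, limma adjusted p = 0.00348). A second probe of the gene gave -1.32. The relatives *Pfkfb2* (0.17) and *Pfkfb4* (-0.25, limma adjusted p = 0.122) were not called. None of the 3 phosphofructokinase subunits was called, with log2 fold changes of 0.03 for *Pfkl*, 0.15 for *Pfkm* and -0.24 for *Pfkp*. *Pfkp*, the platelet-type subunit, had arrays that lay apart and a limma adjusted p of 0.0526.

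From aldolase to pyruvate kinase, 2 of 10 members rose and 1 fell. *Aldoc*, the aldolase best known from brain, showed the highest log2 fold change of all 39 members tested. It read 10.64, 10.80 and 9.85 on the *Sox17 f/f* arrays and 12.52, 12.48 and 12.38 on the *Sox17 ed/ed* arrays. The *Sox17 f/f* value of replicate 3 was the lowest of the 6, and all *Sox17 ed/ed* values stood well above the 3 controls, a log2 fold change of 2.03 (4.08-fold, SE 0.24, limma adjusted p = 0.00286). Without that replicate the change was 1.74, still called. *Aldoa*, the aldolase of muscle and most other tissues, was at 16.00 ± 0.08 and 15.95 ± 0.07 (SD, n = 3 each), with a 95% interval of -0.23 to 0.13 for the log2 fold change.

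The enolase genes split in the same step of the pathway. *Eno1*, the general enolase, read 13.73, 13.64 and 13.54 in *Sox17 f/f* and 14.02, 13.92 and 14.06 in *Sox17 ed/ed* uteri, and rose by 0.36 (SE 0.08, limma adjusted p = 0.0249). *Eno2*, the enolase known from neurons, read 9.71, 9.79 and 9.74 against 9.23, 9.41 and 9.48, and fell by 0.38 on the log2 scale (SE 0.08, limma adjusted p = 0.0286). Neither gene's arrays overlapped between genotypes, but both changes were under 1.4-fold, and the calls were lost in 6 and 7 of 14 alternatives (adjusted p up to 0.08 and 0.0885). *Eno3*, the muscle enolase, was not called (0.19). Of the other enzymes of this stretch, *Tpi1* (0.16), *Pgk1* (0.12), *Pgam1* (0.10) and *Pkm* (0.06) were not called, and all 4 intervals lay within 1.4-fold either way. *Pgam2*, the muscle phosphoglycerate mutase, was dim: 1 of 3 *Sox17 f/f* arrays and 3 of 3 *Sox17 ed/ed* arrays were well above background, and its values of 3.44, 2.65 and 5.12 against 5.08, 5.43 and 6.18 overlapped. Its log2 fold change of 1.82 (SE 0.64, limma adjusted p = 0.102) was not called, and it shrank to 0.52 with the normexp background correction, under which it was called (limma adjusted p = 0.00275). *Pgam2* was also called with the replicate number as a block (limma adjusted p = 0.0447). Without *Sox17 f/f* replicate 3, its brightest control, the change was 2.52 (limma adjusted p = 0.0114).

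Lactate dehydrogenase is a tetramer of A and B subunits, of which the A subunit is usually linked to making lactate from pyruvate and the B subunit to the reverse. *Ldhb* read 12.81, 12.80 and 12.97 on the *Sox17 f/f* arrays and 13.43, 13.49 and 13.63 on the *Sox17 ed/ed* arrays. It rose by 0.66 (1.58-fold, SE 0.08, limma adjusted p = 0.00369), with about the same spread in both genotypes. *Ldha* read 16.15, 16.25 and 16.08 against 15.82, 15.81 and 15.88, and fell by 0.33 on the log2 scale (SE 0.07, limma adjusted p = 0.0256). All 3 *Ldha* probes pointed down, at -0.33, -0.46 and -0.34, and their arrays did not overlap. The call of *Ldha*, a change of 1.25-fold, was lost in 7 of 14 alternatives (adjusted p up to 0.0893).

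Pyruvate dehydrogenase kinases switch off the enzyme complex that passes pyruvate to the citric acid cycle. Of the 4 kinases only *Pdk2*, the form found in most tissues, was called. It read 9.63, 9.52 and 9.93 in *Sox17 f/f* and 10.28, 10.32 and 10.40 in *Sox17 ed/ed* uteri, a rise of 0.64 (1.56-fold, SE 0.12, limma adjusted p = 0.0132). Without *Sox17 f/f* replicate 1 or without *Sox17 ed/ed* replicate 3 the limma adjusted p of *Pdk2* was 0.0538 and 0.0509, at a log2 fold change of 0.61 each. *Pdk1* (0.18), a known target of hypoxia-inducible factor, *Pdk3* (-0.08) and *Pdk4* (0.29), the form induced by fasting, were not called, and the *Pdk4* interval of -0.37 to 0.95 was wide.

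**Figure D2:**
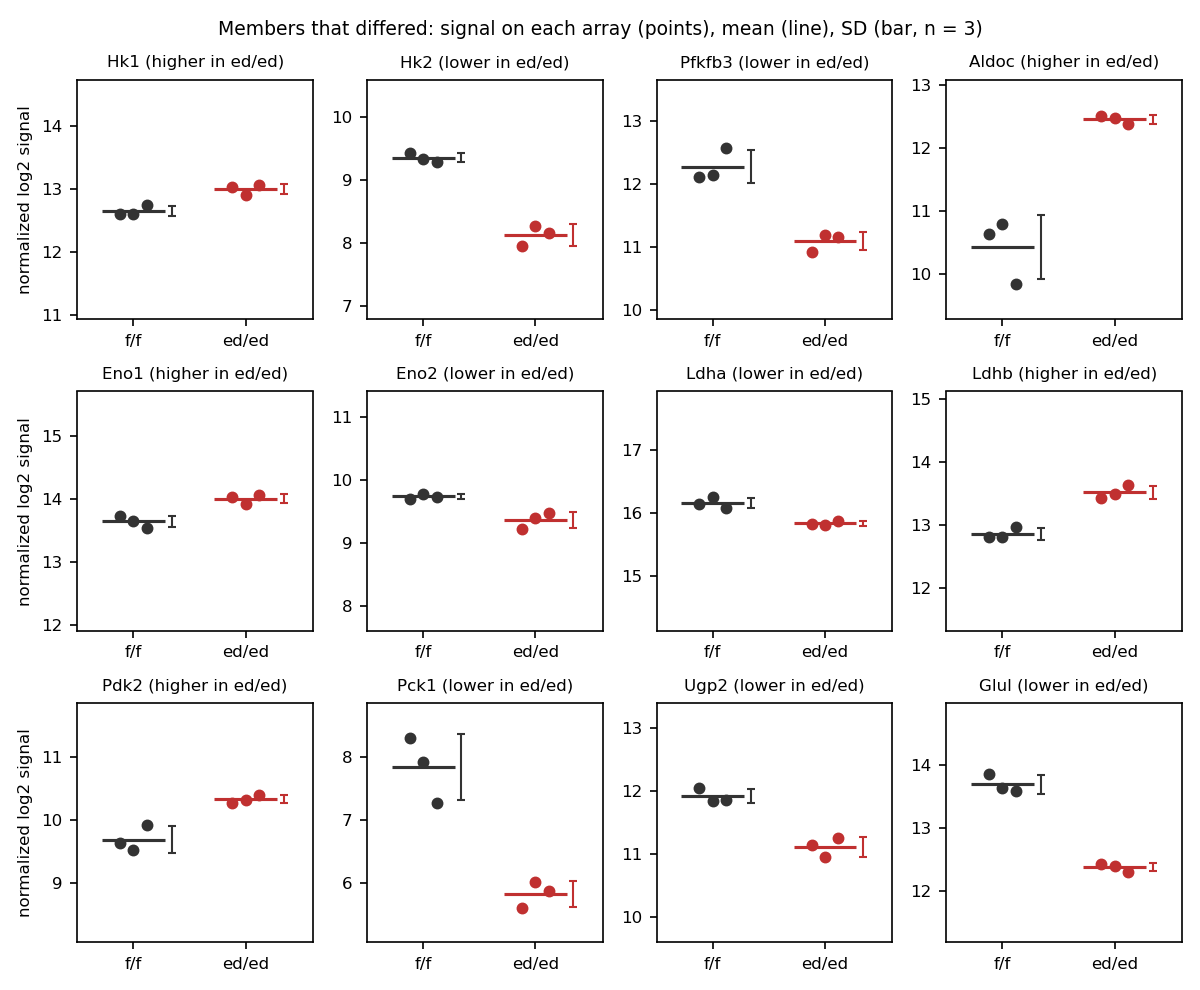
Normalized log2 signal (vertical axis, each panel 3.8 log2 units high) of the 12 members that differed, on the 3 *Sox17 f/f* arrays (black) and the 3 *Sox17 ed/ed* arrays (red). Points are arrays, lines are means and bars are SD (n = 3). In every panel the arrays of the genotypes lie apart, and the steps of *Hk1*, *Eno1*, *Eno2* and *Ldha* are the smallest.

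Gluconeogenesis runs the pathway backwards, with phosphoenolpyruvate carboxykinase and fructose bisphosphatase as its own enzymes. *Pck1*, the cytosolic carboxykinase of liver, kidney and fat, showed the lowest log2 fold change of the 39 members tested. It read 8.30, 7.92 and 7.27 in *Sox17 f/f* uteri and 5.60, 6.01 and 5.86 in *Sox17 ed/ed* uteri. The controls were spread over about 1 log2 unit, with replicate 3 the lowest, and still lay above every *Sox17 ed/ed* array, a log2 fold change of -2.01 (4.02-fold, SE 0.26, limma adjusted p = 0.00402). With the normexp background correction the change was -1.42, and without *Sox17 f/f* replicate 3 it was -2.29, both called. The mitochondrial form *Pck2* was not called (0.16, 95% interval -0.12 to 0.43).

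Tissue next to the uterus was looked for through marker lists. The adipocyte markers *Plin1*, *Lep* and *Cidec* were not well above background on any array, and the summed signal of the 5 adipocyte markers tested was 1335 to 1476 in controls against 1594 to 1808 in *Sox17 ed/ed* uteri. *Lpl*, lipoprotein lipase, makes up most of that sum and rose by 0.42 (limma adjusted p = 0.0147), whereas *Pparg*, the fat cell regulator, fell by 0.36 (limma adjusted p = 0.0381). *Adipoq* (0.95, limma adjusted p = 0.515) and *Cfd* (1.08, limma adjusted p = 0.253), also adipocyte markers, had positive log2 fold changes but overlapping arrays, and were not called. *Fabp4*, a fatty acid carrier of adipocytes, was not called at -0.78 (limma adjusted p = 0.107), with all *Sox17 ed/ed* arrays below the controls. The 4 tested markers of ovary and oviduct summed to 1773 to 2861 in controls against 691 to 819 in *Sox17 ed/ed* uteri. Of these 4, *Ovgp1*, a secreted oviduct glycoprotein, was the only one called (-2.92, limma adjusted p = 0.000422), and the ovarian genes *Cyp19a1*, *Fshr* and *Lhcgr* were not well above background on any array. *Cyp11a1*, which starts steroid synthesis, read 1.98, 2.22 and 1.83 in controls and 1.87, 1.93 and 9.42 in *Sox17 ed/ed* uteri, so replicate 3 stood apart as the one array well above background. Without that array *Pck1* had a log2 fold change of -2.02 (limma adjusted p = 0.0208). The 4 tested pancreas markers summed to 327 to 400 and 274 to 312, with 1 of them lower. Of 11 skeletal muscle markers 7 were tested, 2 were lower, and *Mylpf*, *Myh1*, *Myh4* and *Myot* were not well above background on any array. The part of such tissue in the *Pck1* value was not tested.

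The fructose bisphosphatases *Fbp1* and *Fbp2* did not pass the filter on dim probes and were not tested, since for each of them 0 of 3 *Sox17 f/f* and 2 of 3 *Sox17 ed/ed* arrays were well above background. *Fbp1*, the liver-type enzyme, read 2.79, 3.85 and 2.13 against 5.55, 4.52 and 5.45, and was at least 2.89-fold higher in *Sox17 ed/ed* uteri. *Fbp2*, the muscle-type enzyme, read 2.21, 1.71 and 1.70 against 4.66, 3.13 and 4.61, and was at least 1.43-fold higher. For such a bound, the *Sox17 f/f* level on each array was taken as the lowest signal that counts as well above background, or the probe's own signal where that was higher. The *Sox17 ed/ed* level was the plain mean of the 3 arrays, including the array not well above background. The bound therefore covers the floor of the *Sox17 f/f* signal but not the spread between arrays. With no filter on dim probes, the limma adjusted p was 0.0554 for *Fbp1* and 0.0389 for *Fbp2*.

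None of the 4 pentose phosphate members was called. The NADPH-producing dehydrogenases *G6pdx* (0.07, 95% interval -0.17 to 0.30) and *Pgd* (-0.01, 95% interval -0.17 to 0.16) were measured closely in both genotypes. The enzymes of the non-oxidative branch, which exchange carbon units between sugars, were nearer to the threshold. *Tkt*, transketolase, read 14.24, 14.25 and 14.26 against 14.78, 14.49 and 14.51 (log2 fold change 0.34, limma adjusted p = 0.0511), and *Taldo1*, transaldolase, had a log2 fold change of 0.20 (limma adjusted p = 0.076). The arrays of both genes lay apart, with the *Sox17 ed/ed* values higher.

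Of the 7 genes for making and breaking down glycogen, only *Ugp2* was called. Its enzyme makes UDP-glucose, the sugar donor for glycogen and for the glycans of glycoproteins. *Ugp2* read 12.04, 11.84 and 11.85 in *Sox17 f/f* and 11.13, 10.94 and 11.25 in *Sox17 ed/ed* uteri. The lowest control stood above the highest *Sox17 ed/ed* array, and *Ugp2* fell by 0.81 on the log2 scale (1.75-fold, SE 0.11, limma adjusted p = 0.00406), with a second probe at -0.69. The glycogen synthase *Gys1* (0.16) and *Ppp1r3c* (-0.02), which brings a phosphatase to glycogen and activates the synthase, were not called. *Gbe1*, the branching enzyme, was not called at -0.31 (limma adjusted p = 0.0603), although its arrays lay apart. Among the glycogen phosphorylases, which release glucose phosphate from the store, *Pygl* (0.10), *Pygm* (-0.07) and *Pygb* (0.47, limma adjusted p = 0.0582) were not called. The *Pygb* values of 10.55, 10.97 and 10.97 against 11.20, 11.29 and 11.40 did not overlap.

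*Glul*, glutamine synthetase, joins ammonia to glutamate and had the smallest p of the 39 members. It read 13.87, 13.64 and 13.59 on the *Sox17 f/f* arrays and 12.44, 12.41 and 12.31 on the *Sox17 ed/ed* arrays. All *Sox17 ed/ed* values lay over 1 log2 unit below the controls and close to each other, a log2 fold change of -1.31 (2.49-fold, SE 0.09, limma adjusted p = 0.000351). Under all 14 alternatives its change stayed between -1.37 and -1.23.

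Of the 27 members not called, 22 had a 95% interval within 1.4-fold either way, and the exceptions were *Pgam2*, *Pdk4*, *Tkt*, *Gbe1* and *Pygb*. For 9 of the 27 the arrays of the genotypes lay apart. Such a gap was common: 40.6% of all genes tested, called ones included, had it. Within a genotype, the SD between arrays had a median of 0.10 for the members and 0.11 for all genes. Of the 12 called members, *Hk2*, *Pfkfb3*, *Aldoc*, *Ldhb*, *Pck1*, *Ugp2* and *Glul* kept their call in all 14 alternatives that give a value per gene.

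In several steps the genes for one reaction moved apart. Because the absolute signals of different probes cannot be compared, the log2 difference between the genes was taken on each array and set to a mean of 0 in *Sox17 f/f* uteri. *Hk2* against *Hk1* averaged -1.57 in *Sox17 ed/ed* uteri (2.98-fold lower), going from 0.12, 0.04 and -0.16 on the *Sox17 f/f* arrays to -1.78, -1.34 and -1.60 on the *Sox17 ed/ed* arrays. For *Ldha* against *Ldhb* the *Sox17 ed/ed* arrays lay at -0.91, -0.99 and -1.05, a mean of -0.98 (1.98-fold) with an SD of 0.07 (n = 3). The mean was -0.74 for *Eno2* against *Eno1* and -0.93 for *Pfkfb3* against *Pfkfb4*. *Aldoc* gained 2.08 on *Aldoa* (4.22-fold), and *Pck1* against *Pck2* stood at -2.16 (4.48-fold). The arrays of the genotypes lay apart in all 6 pairs. The pairs were picked with the values of their genes known, so these are descriptions and were not tested.

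**Figure D3:**
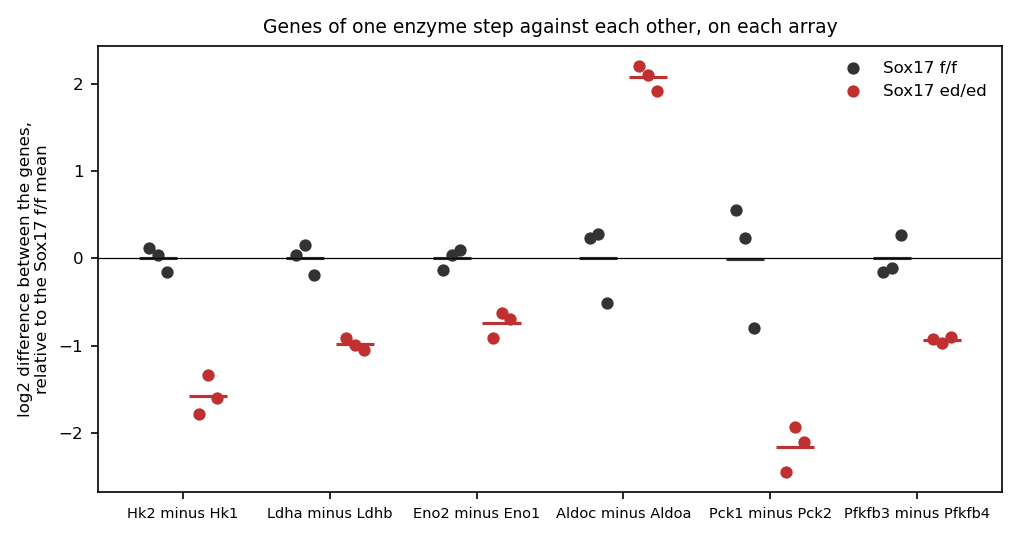
Log2 difference between 2 genes of one enzyme step on each array (vertical axis), relative to the *Sox17 f/f* mean, for 6 pairs. Black points are *Sox17 f/f* arrays, red points are *Sox17 ed/ed* arrays and short lines are means (n = 3). The red points lie below 0 in 5 pairs and above 0 for *Aldoc* against *Aldoa*.

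Beyond the members 91 further genes were listed, of which 75 were tested and 17 (22.7%) called, close to the 18.9% of all genes. Their median log2 fold change was 0.04. They cover the rest of the pathways and also 15 known targets of hypoxia-inducible factor outside carbohydrate metabolism. Those targets make up 14 of the 75 tested and 6 of the 17 called, so these counts are not of the pathways alone. Of the 17, 6 were higher and 11 lower, where 8.84% and 10.1% of all genes were. Among other genes of glycolysis and gluconeogenesis 4 of 15 were called, *Hkdc1* included. *Pcx*, pyruvate carboxylase, which feeds pyruvate into gluconeogenesis and the citric acid cycle, read 13.50, 13.08 and 13.25 in *Sox17 f/f* and 10.57, 10.47 and 10.58 in *Sox17 ed/ed* uteri. It fell by 2.73 on the log2 scale (6.65-fold, SE 0.12, limma adjusted p = 4.64e-05), the same direction as *Pck1*, whose enzyme takes the next step. *Hkdc1*, a hexokinase relative not well above background on any of the 3 *Sox17 f/f* arrays, was at least 4.12-fold higher in *Sox17 ed/ed* uteri. It passed the filter on dim probes only through the *Sox17 ed/ed* arrays, so no p is given for it, and without it 16 of 74 genes (21.6%) were called, 5 of them higher. *Slc37a4*, the glucose-6-phosphate transporter of the endoplasmic reticulum, rose by 0.37 (limma adjusted p = 0.00822). *Gapdh* was not called, at -0.07 (95% interval -0.22 to 0.08).

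The pyruvate dehydrogenase complex with its phosphatases and the mitochondrial pyruvate carriers had 0 of 9 genes called by limma, with 0 at an unadjusted p under 0.05 and 0 at the methods' thresholds, and log2 fold changes between -0.14 and 0.19. Other genes of the pentose phosphate pathway also had 0 of 9 called by limma, with 2 at an unadjusted p under 0.05, 0 at the methods' thresholds and a range of -0.24 to 0.30. Of 20 other glycogen genes 1 rose and 3 fell, all by less than 1.5-fold. *Pgm2l1*, which makes glucose 1,6-bisphosphate, rose by 0.53, and the phosphoglucomutase relative *Pgm2* (-0.27) and the glycogen-targeting subunits *Ppp1r3b* (-0.29) and *Ppp1r3d* (-0.40) fell, the last with a limma adjusted p of 0.0498. Of 8 other enzymes of glutamine and glutamate, *Asns*, which uses glutamine to make asparagine, fell by 0.66 and the transaminase *Got1* by 0.41, while the alanine transaminase *Gpt* rose by 0.59. The share to set beside the counts of these short lists is the 18.9% of all genes tested that were called.

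Several glycolytic genes are classical targets of hypoxia-inducible factor, and 15 other known targets outside carbohydrate metabolism were therefore listed. Of the 14 tested, 6 were called, where 18.9% of all genes were. Of these 6, 2 rose and 4 fell, and the median log2 fold change of the 14 was 0.04. *Egln3*, a prolyl hydroxylase that marks the factor for breakdown, rose by 1.48 (limma adjusted p = 0.00177), and *Car9*, a carbonic anhydrase of the cell surface, rose by 0.79 (limma adjusted p = 0.00691). *Ndrg1* fell by 0.70 (limma adjusted p = 0.00196), and *Ankrd37* (-0.54) and *Adm* (-0.40), which encodes a vasodilator peptide, fell too. *Vegfa* was not called (0.22). As with the members, the list held called genes in both directions.

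**Figure D4:**
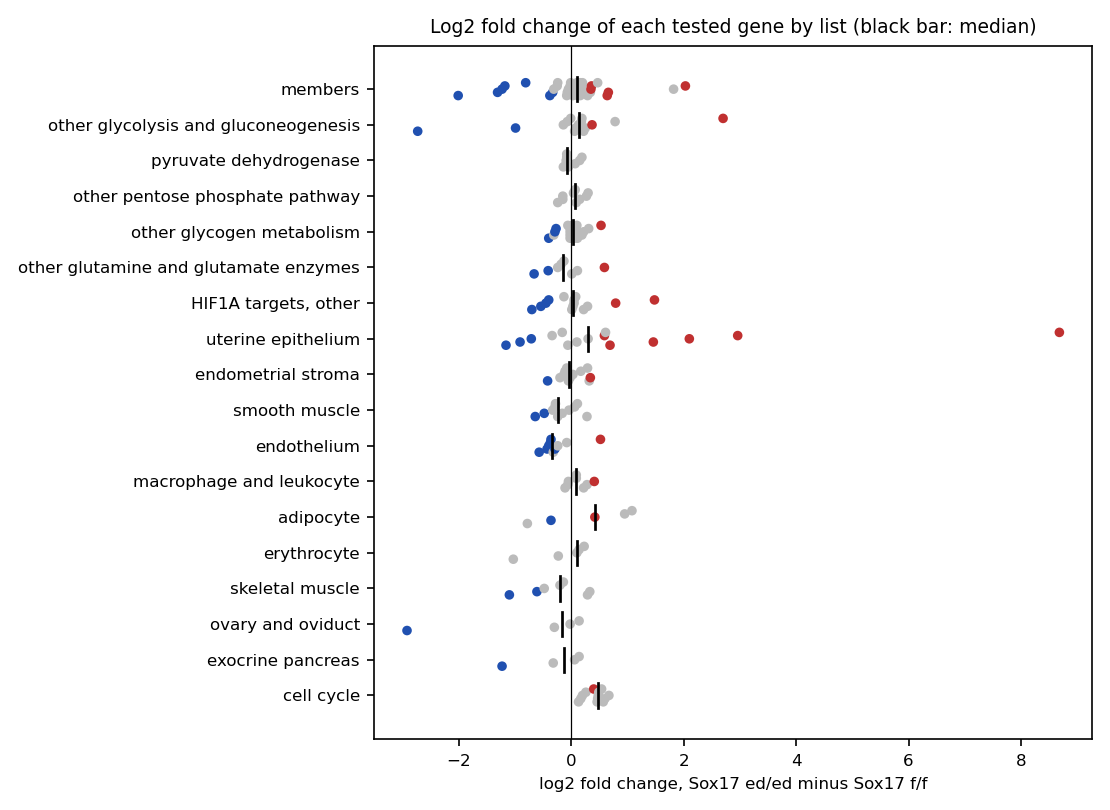
Log2 fold change (*Sox17 ed/ed* minus *Sox17 f/f*, horizontal axis) of every tested gene of each list, with a black bar at the median. Red points rose, blue points fell at a limma adjusted p under 0.05, and grey points were not called. The members and the other pathway lists have medians near 0. Single genes lie far out on both sides among the members and the other genes of glycolysis and gluconeogenesis. The remaining pathway lists span less, and the uterine epithelium list has the widest range.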

How the data were processed

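The authors deposited 1-colour scanner output of 6 arrays (Agilent G3 Mouse GE, Feature Extraction 11.0.1.1 in the file headers and 9.1 in the submitters' processing notes). The deposited intensity used is the processed signal, background-subtracted by the software and not normalized between arrays. The authors' table of processed values lay within 0.191% of its probe means. With 3 arrays a genotype, their number limits the precision.

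Control spots and 169 to 302 outlier spots per array were left out. Log2 signals were quantile normalized, as in the study's methods, and spots averaged per probe. A probe had to be well above background on 3 or more of the 6 arrays. Of 55681 probes 26582 were named by accession, to 20145 genes, each represented by its brightest probe. Genes were fitted with limma 3.58.1 (R 4.3.3) with Benjamini-Hochberg adjustment, and tallied and plotted with Python 3.11.15. The array design is annotated on mm9, and names and promoters came from RefSeq tables of GRCm38.p6. On simulated data for this comparison (14847 genes, 200 changed, seed 1), 76% of genes with a log2 effect of 1 and 96% of those with 2 were recovered, with 9 unchanged genes called. In the real data 2808 genes were called, and the simulated noise was drawn for each gene on its own, so these rates need not hold there.

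Every member is named, and in each other pathway list the called genes, at most the 5 with the smallest p. 1 called gene of these lists is not reported here. *Gapdh*, *Vegfa*, the cell type markers and the 6 enzyme pairs are named outside this rule, with their values seen. The members and all lists were chosen with earlier results of these data known. The alternatives were a 75th percentile shift, normexp correction (offset 50, on median signals), no filter or one over all 6 arrays, averaging over probes, an eBayes intensity trend, the deposited values, the replicate number as a block, the methods' thresholds, and each array left out.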

Additional observations from a re-analysis of the deposited data

How the results depend on the processing

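No call of the 12 members reversed in any of the 14 alternatives with a value per gene. The changes of filter, the intensity trend and the replicate block left the log2 fold changes of these members as they were. Those settings bear on the adjusted p only and could not reverse a call. The count of members higher in *Sox17 ed/ed* uteri, 5, was 8 with an eBayes intensity trend and 3 at the thresholds of the methods. It ranged from 2 to 5 with each array left out, at 3 without *Sox17 f/f* replicate 1 or 2 or without *Sox17 ed/ed* replicate 1, and at 2 without *Sox17 ed/ed* replicate 3. The count of members lower, 7, stayed between 5 and 8 under all alternatives. Among the other pathway genes, the hypoxia targets included, the count higher, 6, was 10 with the intensity trend. Their count lower, 11, was 6 with no filter on low signal, 5 at the thresholds of the methods and 4 to 7 with each of the 6 arrays left out in turn.

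With the replicate number as a block, 4 members were higher and 5 lower, and 5 other pathway genes were lower. Over all genes the block gave 894 higher and 962 lower, against 1312 and 1496 without it. Deviations of same-numbered arrays correlated at 0.06, -0.11 and 0.00 across genes, and those of differently numbered arrays at -0.08 to 0.08. The sample labels do not say that the numbers pair the samples, and so few correlations cannot decide it. Normexp correction was run on median spot signals. Members close to the threshold entered the calls in some alternatives, among them *Tkt*, *Pygb*, *Gbe1* and *Pfkp*. The cause of these shifts was not tested, except that leaving out an array leaves fewer samples. Probes near background limit *Pgam2*, *Fbp1* and *Fbp2*.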
